A study of Mus musculus with 20 samples.

Results

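The genes described here are 35 genes of the synaptic vesicle cycle and the postsynaptic scaffold, chosen by name from the 27179 genes of the expression table, and all 35 were found there. They were taken in 6 roles: 10 vesicle proteins, 4 SNARE and complexin genes, 5 active zone genes, 5 adhesion genes, 8 postsynaptic scaffold genes and 3 genes of calcium signalling. RNA was sequenced from striatum and hippocampus of C57BL/6 mice, labelled wild type or knockout for Ikzf2, the gene of Helios, a transcription factor with zinc fingers. The knockout is a full one by the series title, the labels name no Cre line, transgene or treatment, and neither the age of the animals nor the exon deleted was found in the sources used. There were 4 groups of 5 libraries: striatum wild type (replicates 1 to 5), striatum knockout (6 to 10), hippocampus wild type (1, 2, 3, 4 and 6) and hippocampus knockout (5, 7, 8, 9 and 10).

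At a synapse, vesicles filled with transmitter are held near the membrane by synapsins and docked at the active zone by large scaffold proteins such as bassoon, piccolo and the RIM proteins. A SNARE complex of synaptobrevin (VAMP), syntaxin and SNAP-25 draws vesicle and membrane together, complexins clamp and assist it, and synaptotagmins sense the calcium that triggers release. Neurexins on the presynaptic side bind neuroligins on the other, and behind the receptors the membrane-associated guanylate kinases of the Dlg family, Homer proteins and Shank proteins form the postsynaptic density, where CaMKII is the main calcium-dependent kinase.

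Values are RPKM, reads scaled by gene length and by library size, so that levels of different genes can be set side by side. The decimal marks of RPKM values of 1 or more had been lost and were restored by arithmetic before use. Two-sided tests were made with limma on log2(RPKM + 1), a scale that understates changes of low genes, with Benjamini-Hochberg adjustment over all genes tested. A gene was called at an adjusted p below 0.05. Between 16843332 and 36891525 reads per library could be recovered. The library size behind the RPKM was 0.753 to 1.05 times the recovered reads. It was lowest in hippocampus knockout replicate 7, followed by 0.888 in striatum knockout replicate 7. The lowest member count in any library was 147 reads, for Vamp1, and the highest 18230, for Camk2b. The labels do not say whether each library is a different animal. The p-values therefore measure only how far these libraries vary, which may be technical. In bulk tissue, fewer cells of a type and less RNA per cell cannot be told apart.

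Several libraries stood apart. Ikzf2 was at 0.76 to 1.11 RPKM in the striatal libraries labelled knockout and at 2.09 to 3.66 in those labelled wild type. In hippocampus the groups overlapped (0.353 to 1.43 against 0.782 to 1.61), because code 7_1, labelled wild type replicate 6, was at 0.782 and code 7_6, labelled knockout replicate 5, at 1.43. Both codes carry the opposite genotype label in striatum. Hippocampus knockout replicate 8 was low in long genes, and striatum wild type replicate 4 had a summed RPKM of meningeal markers of 72.7, against a median of 4.41 in its group and 4.28 to 6.67 in the striatal knockout libraries. Striatum wild type replicate 4 was also the lowest of the 10 striatal libraries in 17 of the 35 members and the highest in 4. It was lowest in 11 of the 17 members with a gene length above 5358 bases and in 6 of the other 18. Striatal libraries wild type 5 and knockout 7 had the most Neurod6, a marker of pallial excitatory neurons, at 282 and 255 RPKM against 32.9 to 124 in the other 8. All 12 markers of striatal projection neurons were called higher in striatum, and 7 of the 8 hippocampal markers tested were called lower there. The tissue tag of hippocampus knockout replicate 10 reads striatum, while its title and description name hippocampus. It was kept in hippocampus, and the summed striatal projection neuron markers lay at 51.6 to 86.2 RPKM in the hippocampal knockout group it belongs to, against 483 to 864 in the striatal libraries. Drd1 lay at 9.66 to 17.2 RPKM in striatum and 0.703 to 1.33 in hippocampus, and Prox1, a marker of dentate granule cells, at 2.28 to 8.26 and 14.5 to 33.

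Called differences in this gene set lay between the tissues and not between the genotypes. Of the 33 members tested, 13 were higher in striatum, where 22.6% of the 15444 genes tested were called higher, and 5 were lower, where 25.3% of all genes were called lower. The members' shares were 39.4% and 15.2%. The median difference of the members, striatum minus hippocampus, was 0.15 on the log2 scale, and that of all genes tested 0.00104. Rims1 and Nrgn were not in this fit because the decimal mark of 1 of their values was unsure. The ranges of the 10 striatal and the 10 hippocampal libraries did not overlap for 8 members. Nrxn3, Sv2a, Rims2, Dlg3, Dlg4, Shank3 and Nlgn2 were those entirely above hippocampus, a pattern seen in 8.26% of all genes, and Camk2b was entirely below, a pattern seen in 6.46%.

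**Figure D1:**
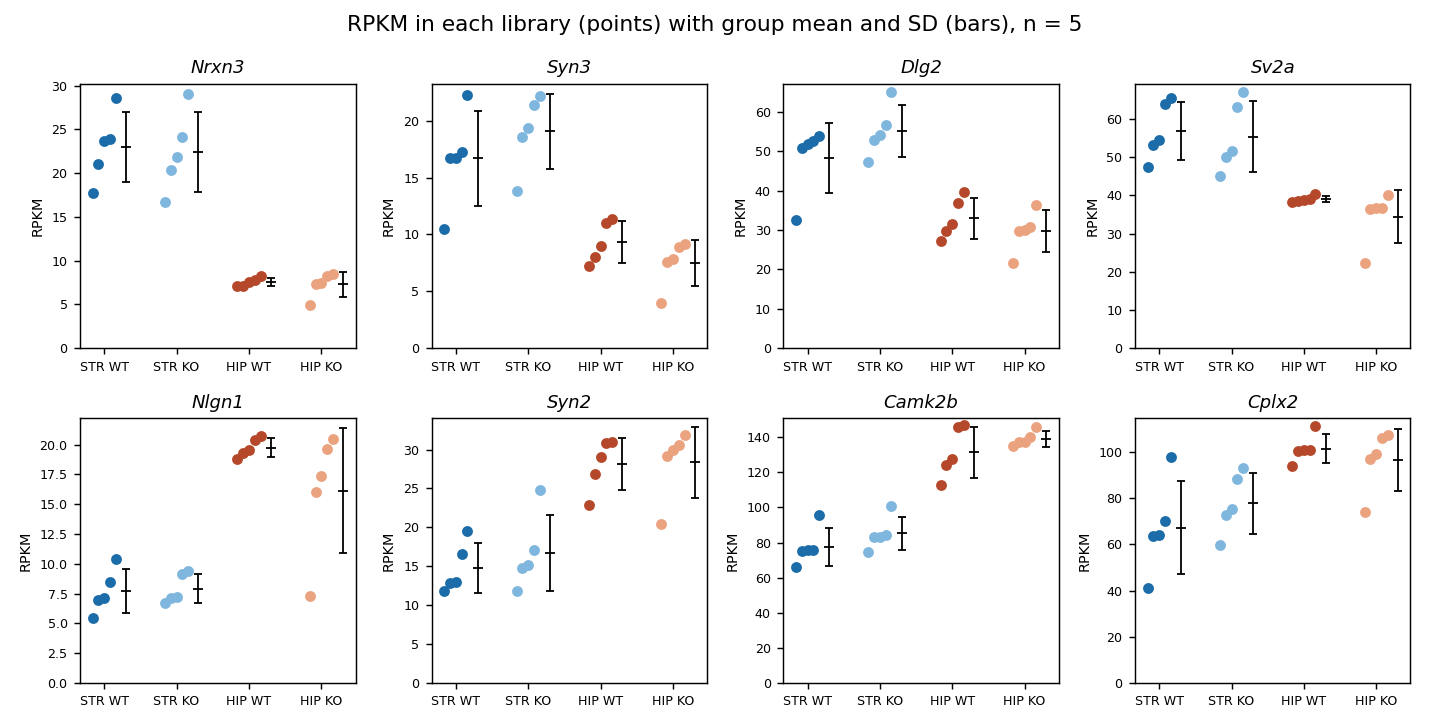
RPKM of 8 members in each of the 20 libraries (points), by tissue (STR striatum, HIP hippocampus) and labelled genotype (WT wild type, KO knockout), with the mean and SD of 5 libraries as bars. Nrxn3 was at 16.7 to 29 RPKM in striatum and 4.94 to 8.5 in hippocampus, and the lowest hippocampal point of Nlgn1, 7.29 RPKM, is knockout replicate 8.

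The adhesion genes held both ends of the tissue scale. Nrxn3, which encodes the presynaptic adhesion protein neurexin 3 (Entrez 18191, chromosome 12, 88722701 to 90334935, GRCm38), was at 21, 23.9, 28.6, 23.7 and 17.8 RPKM in striatum wild type replicates 1 to 5 and at 29, 16.7, 21.8, 24.1 and 20.4 in striatum knockout replicates 6 to 10. In hippocampus it was at 7.07, 8.28, 7.08, 7.74 and 7.6 in wild type replicates 1, 2, 3, 4 and 6, and at 7.49, 8.22, 4.94, 8.5 and 7.31 in knockout replicates 5, 7, 8, 9 and 10. Every striatal library was above every hippocampal one, and within a tissue the genotypes overlapped. The difference was 1.48 ± 0.10 (log2, SE; limma adjusted p = 2.42e-10). The 2 lowest striatal values of Nrxn3 were those of the libraries with the most Neurod6.

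Nlgn1, which encodes neuroligin 1 of excitatory synapses (Entrez 192167, chromosome 3, 25421808 to 26332866), went the other way. It was at 7.15, 6.96, 8.46, 5.46 and 10.4 RPKM in striatum wild type replicates 1 to 5 and at 6.7, 9.4, 7.16, 9.12 and 7.21 in striatum knockout replicates 6 to 10. Hippocampal values were 20.4, 19.3, 19.5, 18.8 and 20.7 in wild type replicates 1, 2, 3, 4 and 6, and 19.6, 20.5, 7.29, 16 and 17.4 in knockout replicates 5, 7, 8, 9 and 10. Apart from knockout replicate 8, the library low in long genes, every hippocampal value was above every striatal one. The tissue difference was -1.08 ± 0.14 (log2, SE; limma adjusted p = 2.47e-06).

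The other neuroligins did not follow Nlgn1. Nlgn2, which encodes the neuroligin of inhibitory synapses, was higher in striatum, with a lowest, median and highest RPKM of 59.8, 69.3 and 78.5 there and 42.9, 53 and 58.7 in hippocampus (0.38 ± 0.05, log2, SE; limma adjusted p = 5.52e-06). Nlgn3 had medians of 23 and 22.9 RPKM and was not called (0.04 ± 0.07, log2, SE; limma adjusted p = 0.657). As a share of the summed RPKM of the neuroligin genes measured here, Nlgn1 made up a median of 7.35% in striatum (5.86% to 10.3% over 10 libraries) and 19.7% in hippocampus (11.2% to 21.7%). Nlgn3 held a like share in both, with medians of 22.6% and 23.7%. Nrxn2, encoding neurexin 2, was higher in striatum with medians of 51.2 and 38.5 RPKM (0.35 ± 0.07, log2, SE; limma adjusted p = 0.000719), although the tissues overlapped. Nrxn3 therefore made up a median of 32.2% of the RPKM of the 2 neurexin genes in striatum and 16.1% in hippocampus, with no overlap between the libraries of the tissues (24.3% to 35.5% against 11.3% to 18.1%). Reads of Nlgn3 cannot be told apart from those of a readthrough transcript, Gm21986, where the 2 share exon bases on the same strand. They share 3823 bases, 41.2% of the 9271 exon bases of all annotated Nlgn3 transcripts. The gene length behind the RPKM of Nlgn3 was 3883 bases, and the shared part of it was not measured.

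Promoter sequence was available from the RefSeq promoter table (GRCm38.p6) for 40 starts of 25 members. TTCAGCACC is the left part of RE1, the site bound by the repressor REST that keeps neuronal genes low in other cells, and TGACGTCA is the cAMP response element. In the 250 bases before a start, on either strand, TTCAGCACC occurred in 0.301% of 32851 starts and in 2 member starts, 1 each of Syn1 and Nlgn1. TGACGTCA occurred in 1.55% of all starts and in that of Syn1. The GC box GGGCGG occurred in 32.7% of all starts and in 17 of the 40 member starts. The stretches that hold TTCAGCACC are shown because no other matched member had it. They run from 250 to 101 bases before the start, 5′ to 3′ on the minus strand in both genes, chrX:20921019-20921168 for Syn1 and chr3:26154087-26154236 for the second of 2 Nlgn1 starts, with TTCAGCACC and TGACGTCA in capitals.
Syn1: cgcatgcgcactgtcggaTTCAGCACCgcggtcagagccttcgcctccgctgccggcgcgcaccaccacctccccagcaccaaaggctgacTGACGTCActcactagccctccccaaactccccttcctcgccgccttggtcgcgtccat
Nlgn1: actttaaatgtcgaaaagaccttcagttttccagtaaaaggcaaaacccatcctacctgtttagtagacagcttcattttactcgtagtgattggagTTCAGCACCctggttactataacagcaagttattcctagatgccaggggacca
The match begins 232 bases before the start in Syn1 and 153 bases before it in Nlgn1, and the capital TGACGTCA of Syn1 begins 159 bases before the start. Syn1 and Nlgn1 had different tissue patterns: Syn1 had medians of 48.6 and 47.2 RPKM in striatum and hippocampus, and Nlgn1 medians of 7.19 and 19.4. A match of letters is a description and says nothing of binding.

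Of the 10 vesicle proteins, 3 were higher in striatum, 1 was lower and 6 were not called. Among all genes tested, 22.6% were called higher and 25.3% lower. The synapsins, phosphoproteins that tether vesicles, differed among themselves. Syn3 (Entrez 27204, chromosome 10, 86048746 to 86498926) had a lowest, median and highest RPKM of 10.5, 17.9 and 22.3 in striatum and 4.01, 8.46 and 11.4 in hippocampus. The difference was 1.01 ± 0.14 (log2, SE; limma adjusted p = 4.64e-06), and 1 striatal library, wild type replicate 4, lay within the hippocampal range. Exons of Syn3 share 14.1% of their bases with Timp3 on the opposite strand, and no source used states the strand setting of the authors' counting, so reads of the 2 genes cannot be told apart there. The same holds for antisense genes over 16.8% of the exon bases of Syp, 14.5% of those of Syt4 and 9.16% of those of Nlgn1. These shares are of the exons of all annotated transcripts, not of the gene length behind the RPKM. Syp had 5211 such bases against 2482 behind its RPKM, and Nlgn1 13422 against 5673. The shared part of the counted bases was not measured. Syn2 (Entrez 20965, chromosome 6, 115134902 to 115282626) had a lowest, median and highest RPKM of 11.8, 15 and 24.8 in striatum and 20.4, 29.6 and 31.8 in hippocampus, and was lower in striatum (-0.83 ± 0.12, log2, SE; limma adjusted p = 7.94e-06). Syn1 did not pass the test (-0.02 ± 0.08, log2, SE; limma adjusted p = 0.879). Syn1 thus made up most synapsin RPKM in both tissues, a median of 58.4% in striatum and 54.9% in hippocampus, while the median share of Syn3 was above that of Syn2 in striatum (22.3% and 18.3%) and lay below it in hippocampus (9.54% and 34%). Syn3 was above Syn2 in 8 of the 10 striatal libraries, the exceptions being wild type replicate 4 and knockout replicate 9.

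Sv2a and Sv2b encode glycoproteins of the vesicle membrane, the first of them the binding site of the antiepileptic levetiracetam. Sv2a lay at 45.1 to 67 RPKM in striatum and 22.4 to 40.5 in hippocampus, with no overlap (0.60 ± 0.10, log2, SE; limma adjusted p = 2.85e-05). Sv2b lay at 2.13 to 14.7 in striatum, across the whole hippocampal range of 4.38 to 9.14, and was not called (-0.26 ± 0.24, log2, SE; limma adjusted p = 0.387). Its highest striatal value belonged to wild type replicate 4 and its lowest to knockout replicate 6. Vamp2, the synaptobrevin of fast transmission, had the highest median RPKM of the 35 genes in both tissues, 161 in striatum and 143 in hippocampus, and was called higher in striatum (0.27 ± 0.08, log2, SE; limma adjusted p = 0.00992). Vamp1 was low in both, with medians of 2.66 and 2.78, or 1.71% and 1.95% of the RPKM of both genes. Syp, encoding synaptophysin, had medians of 97.6 and 95.9. Syt1, the fast calcium sensor, had medians of 69.7 and 60.8, and Syt4, a synaptotagmin that binds calcium poorly, 106 and 130. None of Syp, Syt1, Syt4 and Vamp1 passed the test (limma adjusted p = 0.307, 0.193, 0.394 and 0.982). Without hippocampus knockout replicate 8, where Syt4 was at 52.4 RPKM against 114 to 148 in the other 9, Syt4 was called lower in striatum (-0.32, log2; limma adjusted p = 0.0359).

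Of the 4 SNARE and complexin genes, 2 were called lower in striatum and none higher, where 25.3% of all genes were called lower. Cplx2 had a lowest, median and highest RPKM of 41.3, 71.5 and 97.8 in striatum and 74.1, 101 and 111 in hippocampus, and was lower in striatum (-0.48 ± 0.12, log2, SE; limma adjusted p = 0.00221). The other complexin gene measured, Cplx1, had medians of 49.6 and 45.8 and missed the threshold on the other side (0.15 ± 0.06, log2, SE; limma adjusted p = 0.0576). Cplx1 passed it under other ways of scaling or fitting and without any 1 of 4 libraries (hippocampus wild type 6, hippocampus knockout 8 and striatum wild type 1 or 3), with an adjusted p between 0.0244 and 0.0385 in the latter. Snap25 lay at 65.8 to 91.6 RPKM in striatum and 60 to 109 in hippocampus and was called lower in striatum (-0.22 ± 0.08, log2, SE; limma adjusted p = 0.034). That call was lost when any 1 of 8 libraries was left out, hippocampus wild type 2, 3 or 4, hippocampus knockout 5, striatum wild type 1 or 2 and striatum knockout 8 or 10, with the adjusted p then between 0.0567 and 0.0695. Stx1a, encoding syntaxin 1A, had medians of 34 and 34.8 (-0.05 ± 0.07, log2, SE; limma adjusted p = 0.552).

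Of the 4 active zone genes tested, 1 was called, higher in striatum, where 22.6% of all genes were called higher. This was Rims2, encoding a RIM scaffold that recruits calcium channels. It lay at 8.01 to 12.1 RPKM in striatum and 4.31 to 7.73 in hippocampus, with no overlap (0.56 ± 0.08, log2, SE; limma adjusted p = 1.14e-05). Rims1 lay at 6.07 to 9.54 in striatum and, apart from the unsure 10.5 of hippocampus knockout replicate 8, at 5.04 to 6.2 in hippocampus. With its unsure value kept, Rims1 was higher in striatum (0.31 ± 0.10, log2, SE; limma adjusted p = 0.0188). Unc13a, which encodes the vesicle priming protein Munc13-1, had medians of 28.7 and 26 RPKM, Bsn (bassoon) 16.6 and 16.9, and Pclo (piccolo) 11.7 and 10.5. None of these 3 was called (limma adjusted p = 0.159, 0.675 and 0.228).

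The postsynaptic scaffold was the role with the most calls in 1 direction, 5 of 8 genes higher in striatum and none lower. Roles differ in size, and 3 of the 5 adhesion genes were higher and 1 lower. Of all genes tested, 22.6% were called higher and 25.3% lower. Dlg2, which encodes PSD-93 (Entrez 23859, chromosome 7, 90476188 to 92449246), had a lowest, median and highest RPKM of 32.6, 52.8 and 65 in striatum and 21.6, 30.3 and 39.6 in hippocampus (0.71 ± 0.10, log2, SE; limma adjusted p = 1.02e-05). Striatum wild type replicate 4 alone lay within the hippocampal range. Dlg3, which encodes SAP102, was at 20, 23.1 and 25 in striatum and 12.2, 15.6 and 17 in hippocampus (0.54 ± 0.05, log2, SE; limma adjusted p = 4.45e-08). Dlg4, which encodes PSD-95, was at 78.4, 84.9 and 108 in striatum and 56.4, 64 and 72.3 in hippocampus (0.44 ± 0.06, log2, SE; limma adjusted p = 3.31e-06). Dlg4 made up more than any other of the Dlg genes measured, a median of 53.7% of their RPKM in striatum and 57.4% in hippocampus.

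The Shank genes encode the scaffold that links receptor complexes to actin. Shank3 lay at 12.5 to 20.7 RPKM in striatum and 9.36 to 12.4 in hippocampus (0.52 ± 0.08, log2, SE; limma adjusted p = 2.75e-05). Shank2 was also called, with more overlap, at 10.2 to 19.6 and 4.26 to 15.8 (0.49 ± 0.16, log2, SE; limma adjusted p = 0.0182). Shank1 had the highest level of them, with medians of 39.9 and 33.3, and was not called (0.15 ± 0.11, log2, SE; limma adjusted p = 0.269). Homer proteins bridge Shank and metabotropic glutamate receptors. Homer1 had medians of 15 and 14.6 and Homer2 of 5.58 and 6.1, and neither was called (limma adjusted p = 0.483 and 0.65). Without hippocampus knockout replicate 8, where Homer2 was at 2.53 RPKM, Homer2 was called lower in striatum (-0.18, log2; limma adjusted p = 0.0454).

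**Figure D2:**
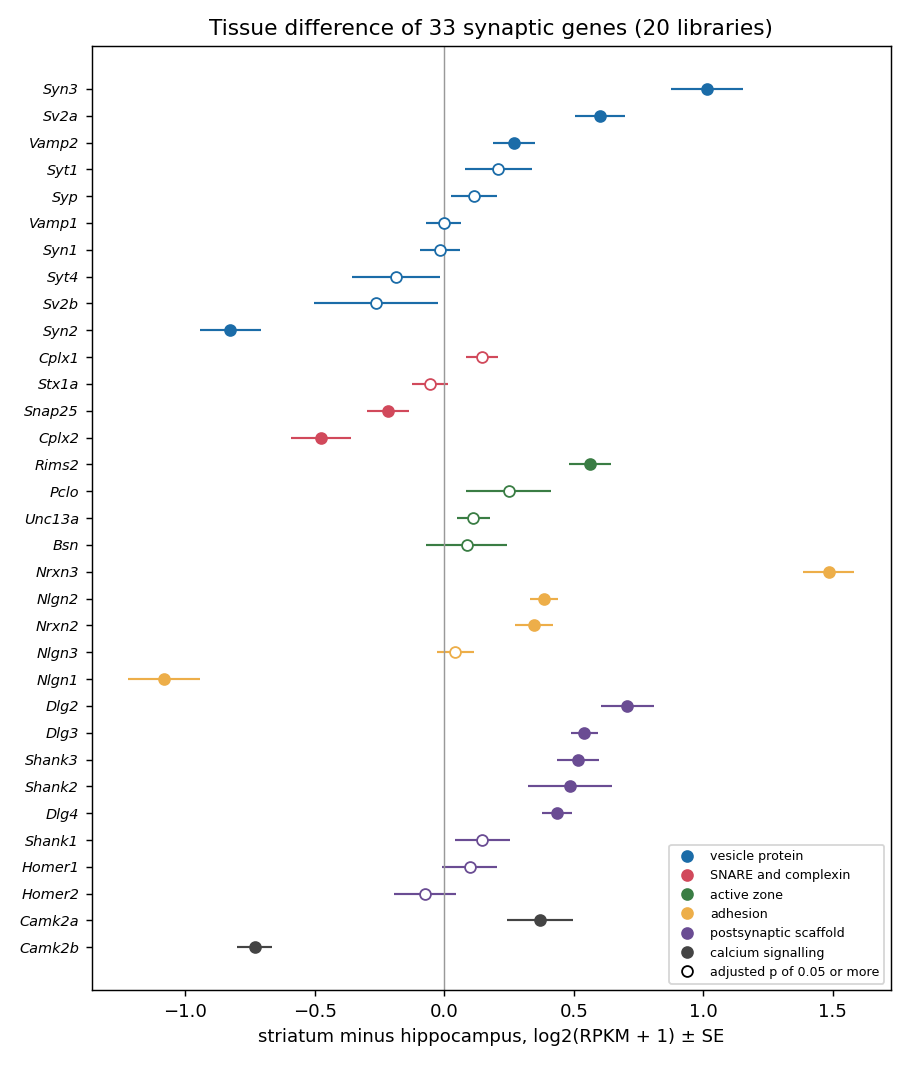
Difference between striatum and hippocampus in log2(RPKM + 1) for the 33 members tested, with bars of 1 SE from limma over 20 libraries, coloured by role. Filled points passed an adjusted p of 0.05: 13 lie to the right (higher in striatum), led by Nrxn3 at 1.48, and 5 to the left, led by Nlgn1 at -1.08.

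The CaMKII subunits differed between the tissues in opposite directions. Camk2b (Entrez 12323, chromosome 11, 5969629 to 6066357), the beta subunit that binds actin, lay at 65.8, 79.5 and 101 RPKM (lowest, median, highest) in striatum and 113, 137 and 147 in hippocampus, with no overlap (-0.73 ± 0.07, log2, SE; limma adjusted p = 2.65e-08). Camk2a, the alpha subunit, was at 18.6, 25.4 and 38.5 in striatum and 16.2, 18.5 and 27.7 in hippocampus and was called higher in striatum (0.37 ± 0.13, log2, SE; limma adjusted p = 0.0223). The ratio of Camk2b to Camk2a within a library was 2.16 to 5.33 in striatum, with a median of 3.06, and 5.3 to 9.04 in hippocampus, with a median of 7.43. Camk2b was thus above Camk2a in all 20 libraries. Nrgn, encoding neurogranin, a postsynaptic protein that holds calmodulin, was the most variable member within groups in both tissues. It lay at 7.03 to 58 RPKM in striatum, where the lowest value has an unsure mark, and at 14.5 to 70.4 in hippocampus. With the unsure value kept it did not differ between the tissues beyond that spread (-0.24 ± 0.31, log2, SE; limma adjusted p = 0.569).

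In 7 members the 2 highest or the 2 lowest striatal values were those of wild type replicate 5 and knockout replicate 7, the libraries with the most Neurod6. They were the 2 highest in 6 of the 34 members with sure marks, a pattern held by 5.88% of the 14942 genes tested in striatum, and the 2 lowest in 1, a pattern held by 4.72%. Syt4 was at 144 and 169 RPKM there and at 72.7 to 121 in the other 8, Cplx2 at 93.2 and 97.8 against 41.3 to 88.2, and Camk2b at 95.4 and 101 against 65.8 to 84.2. Nlgn1, Homer1 and Stx1a were also highest in those 2 libraries, and Nrxn3 was lowest, at 16.7 and 17.8 against 20.4 to 29. With both left out, 12 members were called higher in striatum and 4 lower, and the calls of Shank2 and Snap25 were lost. The share of all genes called in that fit is not given here. The part of other cells or tissue in these values was not tested.

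**Figure D3:**
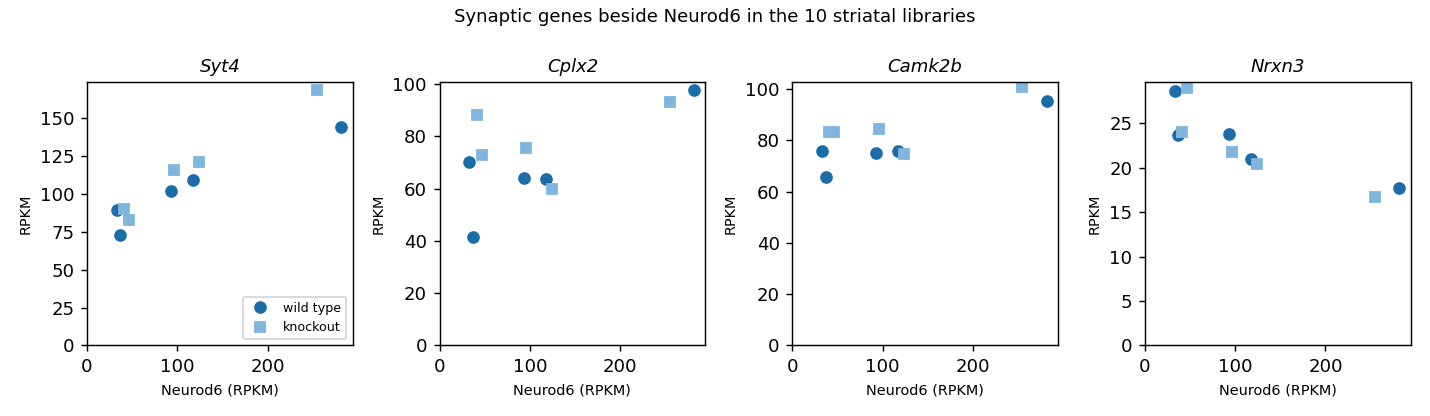
RPKM of Syt4, Cplx2, Camk2b and Nrxn3 against Neurod6 RPKM in the 10 striatal libraries, with circles for libraries labelled wild type and squares for knockout. The 2 libraries at 255 and 282 RPKM of Neurod6 are the highest in the first 3 genes and the lowest in Nrxn3.

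Other synaptic genes, listed from general knowledge, were also split between the tissues. Beside them, 22.6% of all genes tested were called higher in striatum and 25.3% lower. Of 62 further presynaptic genes, 59 were tested, 30 were called higher in striatum and 7 lower, with a median difference of 0.23 (log2). The largest were Syt6 (3.60), Lin7a (1.56) and Sv2c (1.43), and the smallest Rab3d (-1.32), Sh3gl2 (-1.05) and Syt9 (-0.84). Syt6, a synaptotagmin, lay at 39.1 to 57.3 RPKM in striatum and 2.49 to 4.68 in hippocampus. Of 60 further postsynaptic genes, 21 were called higher and 12 lower, with a median of 0.07. The largest were Gda (1.68), Arc (0.92) and Camk2d (0.91), and the smallest Shisa6 (-2.46), Clstn2 (-1.77) and Lrrtm1 (-1.17). Shisa6, an auxiliary protein of AMPA receptors, lay at 1.48 to 6.71 RPKM in striatum and 9.58 to 33.6 in hippocampus.

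Markers of cell maturity and of other cells were also compared between the tissues. Beside the counts that follow, 22.6% of all genes tested were called higher in striatum and 25.3% lower. Of 7 markers of mature neurons, 3 were higher in striatum and 1 lower, and their summed RPKM overlapped in all 4 groups (1761 to 2357 in striatum wild type, 1921 to 2313 in striatum knockout, 1955 to 2034 in hippocampus wild type and 1820.1 to 2106 in hippocampus knockout). Of 7 tested markers of immature neurons, 4 were lower in striatum and none higher. Their list of 8, 1 with an unsure mark, summed to 2366 to 3164 RPKM in striatum wild type and 2316 to 3171 in striatum knockout. In hippocampus these sums were 2728 to 2825 in wild type and 2486 to 3049 in knockout. Of 8 cell cycle markers, 2 were lower in striatum and none higher. They summed to 122 to 202 and 113 to 187 RPKM in striatum wild type and knockout, and 139 to 163 and 128 to 153 in hippocampus. Of 6 astrocyte markers, 2 were higher and 4 lower, with summed RPKM of 91.4 to 236 in the striatal groups and 139 to 247 in the hippocampal ones. Summed oligodendrocyte precursor markers were at 59.7 to 84.6 in striatum and 34.9 to 58.6 in hippocampus, and 4 of 5 were higher in striatum. Of 3 oligodendrocyte markers tested, 1 was higher in striatum and none lower. Their list of 5 summed to 20.1 to 106 RPKM in striatum wild type and 18.9 to 27.9 in striatum knockout. In hippocampus these sums were 12.9 to 17 in wild type and 11.2 to 17.3 in knockout. In all, 4 of 5 microglial and 3 of 4 endothelial markers were lower in striatum, as were 4 of 5 meningeal markers and 2 of the 3 tested in each of the choroid plexus and ependymal lists. Summed choroid plexus markers ran from 1.19 to 17.3 RPKM in striatum and from 34.7 to 372 in hippocampus. No marker of astrocytes, microglia, endothelium or oligodendrocyte precursors was at 0 in any library. The part of these cells in the members' differences was not tested.

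Between the genotypes no member was called in either tissue. In striatum, limma called 0 of 34 members and 0% of 14942 genes at an adjusted p below 0.05. At an unadjusted p below 0.05 it still listed 0 members, while 2.01% of all genes were higher and 1.97% lower. The differences, knockout minus wild type, ran from -0.09 (Nlgn2) to 0.24 (Cplx2), with SEs of 0.06 to 0.42, a median of 0.06 and a smallest adjusted p of 0.987. Of the 34 members, 24 were above 0 (70.6%), where 49.4% of all genes were. The share above 0 was 66.7% of the further presynaptic genes tested, 71.7% of the further postsynaptic ones and 71.4% of the mature neuron markers. Wild type replicate 4 was the lowest of the 10 striatal libraries in 17 of the 35 members. Limma's voom on recovered reads called 0 members in either tissue and in the interaction, and 1 gene of all in striatum. Their ranges overlapped between the genotypes in every case, and 0.328% of all genes had knockout libraries wholly above and 0.468% wholly below. Ikzf2 itself had a limma adjusted p of 0.0964 in striatum on this scale, where its values lie near the pseudocount.

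The spread within the striatal groups is seen in single members. Syn1 was at 36.7, 40, 54.3, 43.9 and 48.6 RPKM in wild type replicates 1 to 5 and at 48.6, 50.8, 51.6, 57.4 and 41 in knockout replicates 6 to 10. Dlg4 was at 79, 86.9, 95.2, 83.3 and 82.9 in wild type and at 108, 82.8, 86.4, 96.1 and 78.4 in knockout. In both genes wild type replicate 3 lay above several knockout libraries and knockout replicate 10 below most wild type ones. Nrgn, kept with its unsure mark, was at 18.1, 11.8, 22, 7.03 and 39.8 in wild type and 11.1, 54.8, 40.2, 58 and 17.9 in knockout (0.81 ± 0.52, log2, SE; limma adjusted p = 0.987).

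In hippocampus, limma called 0 of 34 members and 0% of 14922 genes, and at an unadjusted p below 0.05 it listed 0 members, with 2.58% of all genes higher and 1.92% lower. The differences, knockout minus wild type as labelled, ran from -0.35 (Nlgn1) to 0.49 (Nrgn), with a median of -0.04 and a smallest adjusted p of 0.719. Of the 34 members, 16 were above 0 and 18 below, where 47.8% of all genes were above. No member's genotypes were free of overlap, against 0.757% of all genes with knockout libraries wholly above and 1.67% wholly below. Without knockout replicate 8 the range narrowed to -0.13 to 0.21, and the median was 0.04. Shank3 (0.14 ± 0.05, log2, SE) and Stx1a (0.11 ± 0.05) then had an unadjusted p of 0.0263 and 0.0391, and limma adjusted p-values of 0.477 and 0.511. In that fit 9.26% of all genes passed the unadjusted threshold. With the labels of codes 7_1 and 7_6 exchanged, no member was called and 1, Syn1, had an unadjusted p below 0.05 (0.22 ± 0.08, log2, SE; limma adjusted p = 0.721), beside 2.81% of all genes. Without both codes Syn1 was again the only member below it (0.24 ± 0.10, log2, SE; limma adjusted p = 0.696), beside 3.43% of all genes.

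**Figure D4:**
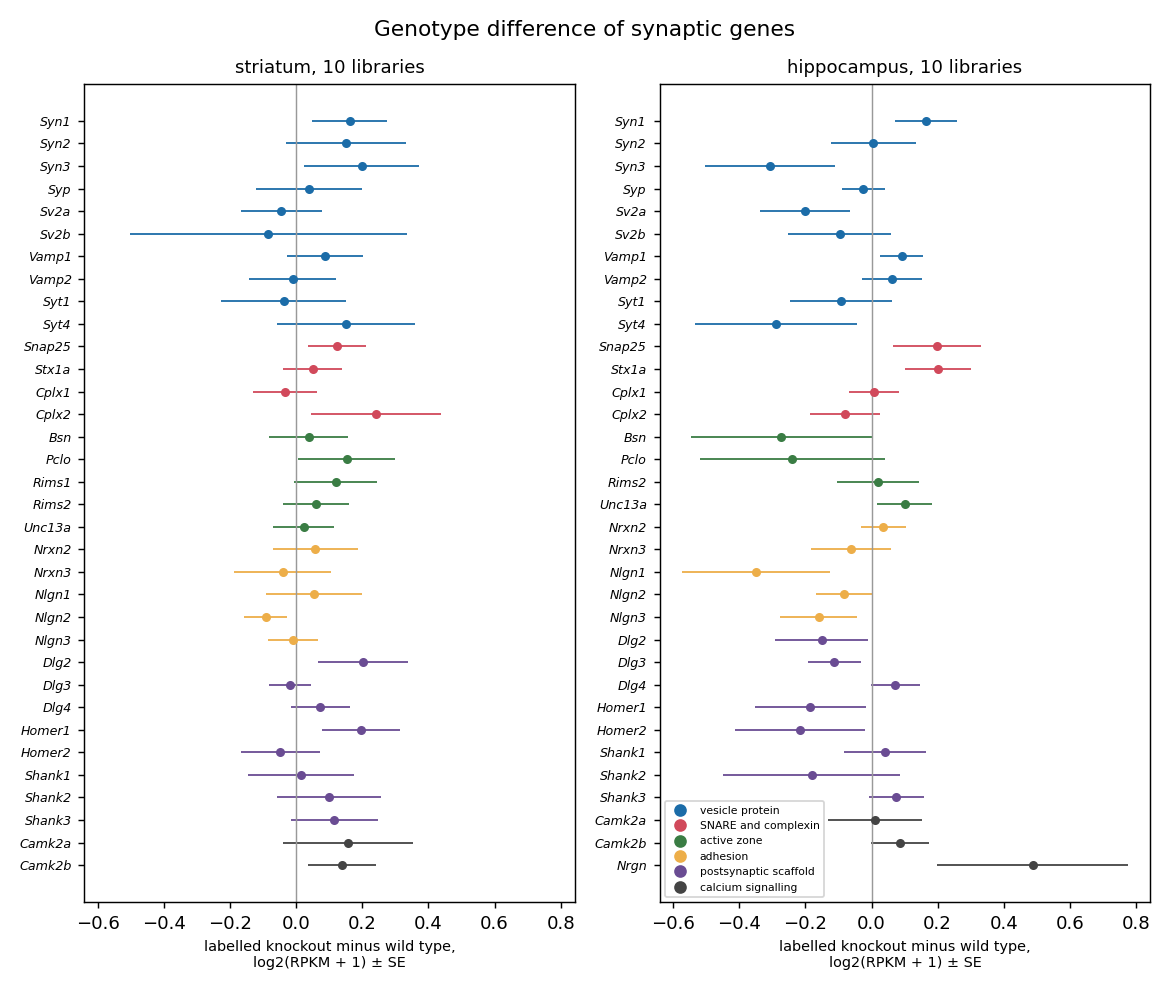
Difference in log2(RPKM + 1) between libraries labelled knockout and wild type in striatum (left) and hippocampus (right), 34 members each, with bars of 1 SE from limma over the 10 libraries of the tissue and colours by role. The differences lie between -0.09 and 0.24 in striatum and between -0.35 and 0.49 in hippocampus, and none passed the test.

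The interaction of genotype and tissue was called for 0 of 33 members and 0% of 15444 genes, and at an unadjusted p below 0.05 for 0 members against 1.15% of all genes higher and 2.16% lower. Its largest value among the members was 0.51 ± 0.28 for Syn3 (log2, SE; limma adjusted p = 0.802). The authors' deposited table of each tissue lists 73 transcripts of the 35 genes. In the authors' deposited table of hippocampus, 55 of them had an estimate that could be read, and 42 had an adjusted p. The smallest adjusted p read there was 0.868, and log2 fold changes ran from -0.301 to 0.217. In the authors' deposited table of striatum, 54 had a readable estimate and 39 an adjusted p. The smallest read there was 0.999, and log2 fold changes ran from -0.204 to 0.213. Values of 1 or more had lost their marks and very small adjusted p-values their exponents, and only values below 1 were read. A fold change of 1 or more in size, or a very small adjusted p, therefore could not appear in these ranges.

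Hippocampus knockout replicate 8 was part of the hippocampal values above except where they are given without it. It was the lowest of the 10 hippocampal libraries in 23 of the 35 members and the highest in 7. Of the 17 members with a gene length above 5358 bases it was lowest in 15 and highest in 0, and of the other 18 it was lowest in 8 and highest in 7. Pclo, with the longest gene model (22065 bases), was at 3.17 RPKM against 8.85 to 12.7 in the other 9, and Bsn at 5.38 against 14 to 18.9. Nrgn, with the shortest (1293 bases), was at 70.4 against 14.5 to 31.7, and Stx1a at 48.9 against 30.6 to 36.8. Across the 35 genes the rank correlation of length with this library's log2 ratio to the median of the other 9 was -0.666, a description within 1 library of genes that share its depth. Without it, 15 members were called higher in striatum and 7 lower, including all 18 called with it. Rims1, whose unsure mark lies in this library, was among the members tested only without it, so the 2 sets of calls differ in genes tested. The share of all genes called without this library is not given here, so the larger counts are not a result about the members.

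**Figure D5:**
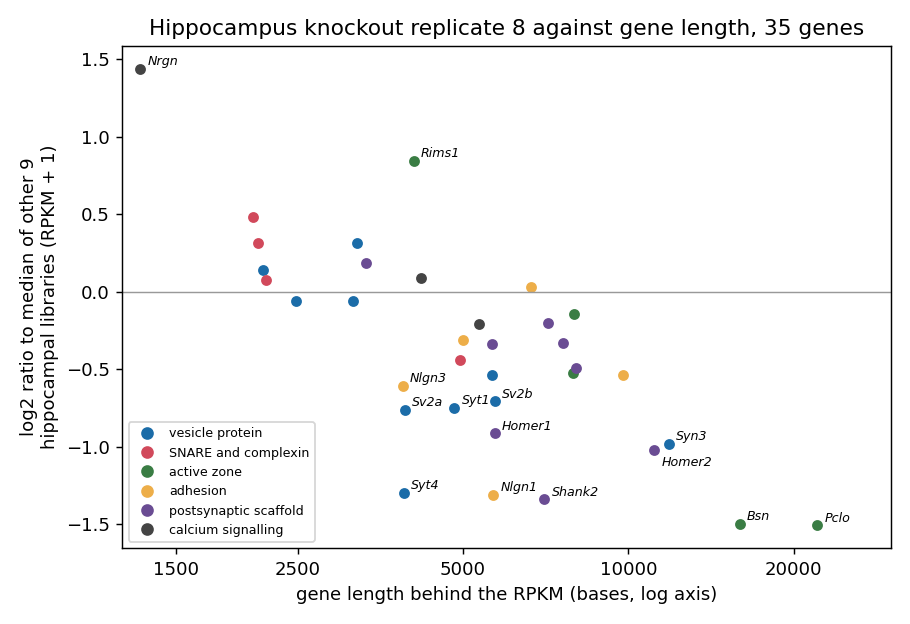
Log2 ratio of RPKM + 1 in hippocampus knockout replicate 8 to the median of the other 9 hippocampal libraries, against gene length on a log axis, for 35 members coloured by role. The longest genes, Bsn and Pclo, lie near -1.5, and the shortest, Nrgn, at 1.44.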

How the data were processed

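The authors deposited RPKM values per gene for 20 libraries from a stranded mRNA kit and single reads of 75 bases, per the labels' protocols. BWA 0.7.4, cutadapt 1.3, featureCounts, HTSeq, DESeq2, CASAVA 1.8.2, FastQC 0.11, SAMtools, bcl2fastq 2.15.0 and the build mm10 are named, with no role or order, per the submitters' processing notes. The marks lost from 51.1% of RPKM values were restored where value times library size gave whole reads (within 0.001) over 1 gene length. Of several such places, the choice weighed nearness to the gene's other libraries of the tissue and favoured smaller read numbers. A second pass chose open places again, from values predicted by the gene's other libraries and by gene length, and moved 286 values. Restored values therefore lean towards the gene's other libraries. In striatum 119 genes and in hippocampus 249 kept a mark that could not be settled and were left out of the fits of that tissue. The authors' deposited log2 fold changes and standard errors and their adjusted p-values, held here as scores because marks are lost in some, were used only for members. Intervals from reads would cover counting error only.

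Genes that reached 0.5 RPKM in 5 or more libraries were fitted with limma 3.58.1 (trend, robust) in R 4.3.3 on log2(RPKM + 1), with no covariate. The tissue contrast averaged the genotypes over all 20 libraries, genotype was fitted within each tissue, and the interaction over all 20. Restoration and fits were tried on simulated data. The simulated reads for the restoration were drawn about the restored values, so they cannot show whether a mark in the real data was misplaced. Those for the fits had the same spread setting for every gene and no library effects, unlike the libraries here. Of 40 pairs of libraries within groups none agreed within counting noise (smallest chi-square 6.77 per degree of freedom). Symbols came from RefSeq by Entrez identifier. All 35 members are named, and of the other synaptic lists the 3 largest and 3 smallest called tissue differences. Members, lists and tests were chosen with earlier results of these data known. Alternatives changed the pseudocount, filter, scaling, length trend, unit (voom on recovered reads), libraries and unsure marks.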

Additional observations from a re-analysis of the deposited data

Results flagged for a closer look

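Among 140 groups of 5 libraries (35 genes in 4 groups), 13 had 1 library whose gap to its nearest neighbour was more than 0.71 of the group's range. Chance alone would single out about 1 in 20 of independent groups. The 35 genes share the same libraries, so the 140 groups are not independent and the 13 cannot be judged against that rate. The share of all genes singled out by this rule is not given here. Of the 13, 9 were hippocampus knockout replicate 8, the library that was low in long genes. It was low in Syn2 (20.4 RPKM against 29.1 to 31.8 in the other 4), Sv2a (22.4 against 36.5 to 40.1), Syt1 (36.1 against 58.7 to 67.8), Syt4 (52.4 against 125 to 145), Homer1 (7.32 against 13.9 to 15.4) and Homer2 (2.53 against 5.86 to 6.74). Of these, Sv2a, Syt1 and Syt4 are not among the longer members, with gene lengths of 3920, 4820 and 3901 bases. The same library was high in Stx1a (48.9 against 34 to 36.8), Nrgn (70.4 against 23.6 to 31.7) and Rims1 (10.5 against 5.04 to 6.07), the last with an unsure mark.

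The other 4 were spread over 4 libraries. Striatum wild type replicate 4 was low in Dlg2 (32.6 RPKM against 50.8 to 53.9). Striatum knockout replicate 10 was low in Bsn (12.5 against 16.8 to 17.6). Striatum knockout replicate 7, with much Neurod6, was high in Homer1 (19.96 against 14.5 to 15.5). Hippocampus wild type replicate 6, code 7_1, was high in Camk2a (27.7 against 16.6 to 18.8). No member had a tissue-dependent genotype difference by the interaction test or by opposite, non-overlapping groups.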

How the results depend on the processing

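In the tissue comparison, 13 members were higher and 5 lower in striatum. Over all alternatives the counts were 10 to 15 higher and 3 to 7 lower, no called member changed sign, and the count of lower calls fell to 3 with knockout libraries only (10 higher). Leaving out each library in turn gave 13 to 15 higher and 4 to 7 lower. The shares of all genes called under these alternatives are not given here, so the counts describe the members only. With wild type libraries only there were 12 and 4 calls, and Camk2a, Snap25 and Shank2 lost theirs. With knockout libraries only, Vamp2, Cplx2, Camk2a, Snap25 and Shank2 lost theirs. Cplx1 was called under median-ratio scaling, with the length trend removed and with voom (adjusted p 0.0414, 0.0284 and 0.0396). Without hippocampus knockout 7 and 8 and striatum wild type 4 there were 14 and 6. The settings that leave out these libraries or those with the most Neurod6, and voom with median-ratio factors, were chosen after seeing the data. The planned voom with TMM was not run. No genotype or interaction alternative called a member. No scaling moved the median of all genes by over 0.1.

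With the replicate number as a block across tissues, the tissue counts were 13 and 4, with the call of Snap25 lost (adjusted p 0.0526), and the interaction 0 and 0. Same-numbered libraries of the tissues deviated together with correlations of -0.188 to 0.239, not all over 0.1, and not every library correlated best with its own number, so the numbers were not taken to pair samples. No paired analysis of genotype within a tissue was possible because its genotype groups share no replicate numbers. Across tissues each replicate number carries the same code, and the block fit above is the comparison that pairs them.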
